A study of Mus musculus with 2 samples.

Results

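The let-7 microRNAs described here come from the 9 hairpins of the mouse let-7 family that lie outside the clusters shared with miR-99/100 and miR-125. They were the rows of the count tables whose gene identifier carries 1 of 9 symbols, and all 9 were found among the 1973 microRNA genes of the tables. Mirlet7g and Mirlet7i are solitary, and the other 7 lie in 3 clusters: Mirlet7a-1, Mirlet7f-1 and Mirlet7d, then Mirlet7b and Mirlet7c-2, then Mir98 and Mirlet7f-2. Mirlet7f-1 has no row of its own symbol, and its reads were counted at Gm24111, a gene annotated on the opposite strand of the same hairpin. Small RNA (under 30 nucleotides, per the labels) was sequenced from forebrain at postnatal day 0 of the mouse strain B6NCrl. The samples form 1 group of 2 replicates, each the forebrain of 1 pup: replicate 1 is pup 1 and replicate 2 is pup 3. The labels list the same donor record for both, say that sex was not collected and name no treatment or altered allele, so the design implies a description of levels and of the spread between pups, with no contrast of conditions.

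MicroRNAs are cut from hairpin precursors, first by Drosha in the nucleus and then by Dicer in the cytoplasm, and guide Argonaute proteins to messenger RNAs that pair with their seed (bases 2 to 8). Members of the let-7 family repress growth and progenitor genes such as Hmga2, Igf2bp1 and Lin28a, and Lin28 proteins in turn bind the terminal loop of let-7 precursors and block their maturation. In the developing brain let-7 is known to accumulate as neural progenitors give way to neurons, and let-7b and let-7d repress Nr2e1 (Tlx), a nuclear receptor that maintains neural stem cells.

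All 9 members give a 5p product with the same seed, GAGGUAG, and differ outside it. The mature sequences, from RefSeq on GRCm38.p6, are shown because some of them are shared between hairpins and others are not. Capitals mark the seed, and the sequences run 5′ to 3′.
let-7g-5p of Mirlet7g: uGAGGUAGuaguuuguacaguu
let-7i-5p of Mirlet7i: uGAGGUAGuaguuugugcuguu
let-7b-5p of Mirlet7b: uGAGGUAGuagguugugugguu
let-7d-5p of Mirlet7d: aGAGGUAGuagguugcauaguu
miR-98-5p of Mir98: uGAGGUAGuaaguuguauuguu
let-7a-5p of Mirlet7a-1: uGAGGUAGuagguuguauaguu
let-7c-5p of Mirlet7c-2: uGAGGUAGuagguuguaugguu
let-7f-5p of Mirlet7f-1 and Mirlet7f-2: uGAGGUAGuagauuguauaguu

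With positions counted from 1 at the 5′ end and let-7a-5p as the reference, let-7f-5p differs by G12A, let-7c-5p by A19G, and let-7b-5p by A17G and A19G. The same comparison gives G12U and U18C for let-7g-5p, G11A and A19U for miR-98-5p, and U1A and U16C for let-7d-5p. The 4 substitutions of let-7i-5p are G12U, A17G, U18C and A19U, more than for any other member. The 5p product was found in 1 of the 1005 RefSeq hairpins for Mirlet7g, Mirlet7i, Mirlet7b, Mirlet7d and Mir98. It was found in 2 hairpins for the other 4 members. The second hairpin was Mirlet7a-2 for Mirlet7a-1 and Mirlet7c-1 for Mirlet7c-2, while Mirlet7f-1 and Mirlet7f-2 hold the same product as each other. The 5p sequence has to be read 2 bases further into the hairpin to tell the copies of let-7a or let-7c apart and 1 base further for let-7f. The 3p products of Mirlet7a-1 and Mirlet7c-2 are also identical: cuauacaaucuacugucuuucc. The count tables leave out reads that map to several places, and these were 43.0% of all reads in pup 1 and 43.5% in pup 3.

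Together the 9 hairpins took 15.3% of the reads assigned to microRNA genes in pup 1 and 17.0% in pup 3, or 16.2% ± 1.26 (SD, n = 2). The exact (Clopper-Pearson) 95% intervals were 15.25 to 15.29% and 17.02 to 17.07%. Each covers counting error within 1 library only and leaves out the spread between pups. The labels name no molecular identifiers that would tell copies of 1 molecule apart, and such copies would make the intervals too narrow. The pups differed by 1.78 percentage points. The 2 solitary hairpins held most of these reads. They took 76.8% of the members' reads in pup 1 and 78.2% in pup 3, and the 7 clustered hairpins took the rest.

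Mirlet7g (ENSMUSG00000065440.1, chr9:106178840-106178927, plus strand, in an intron of Wdr82, a subunit of histone methyltransferase complexes) had 661093 reads in pup 1 and 545429 in pup 3. As counts per 1000000 assigned reads (CPM) these were 73153 and 71032, with a coefficient of variation of 2.08%, the lowest of any member on this scale (after TMM scaling, below, Mirlet7b was closer between pups). It ranked 2 among all genes in each pup.

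Mirlet7i (ENSMUSG00000065406.2, chr10:122985640-122985724, minus strand, overlapping an exon of the transcribed pseudogene D630033A02Rik) had 44154 CPM in pup 1 and 62183 CPM in pup 3 and ranked 3 in each. Its product differs from let-7g-5p at 2 positions. The ratio of Mirlet7g to Mirlet7i was 1.66 in pup 1 (95% exact interval 1.65 to 1.66) and 1.14 in pup 3 (1.138 to 1.147). Mirlet7g supplied 47.9% of the members' reads in pup 1 and 41.7% in pup 3, and Mirlet7i supplied 28.9% and 36.5%. The pair was nearer to equal shares in pup 3 than in pup 1.

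**Figure D1:**
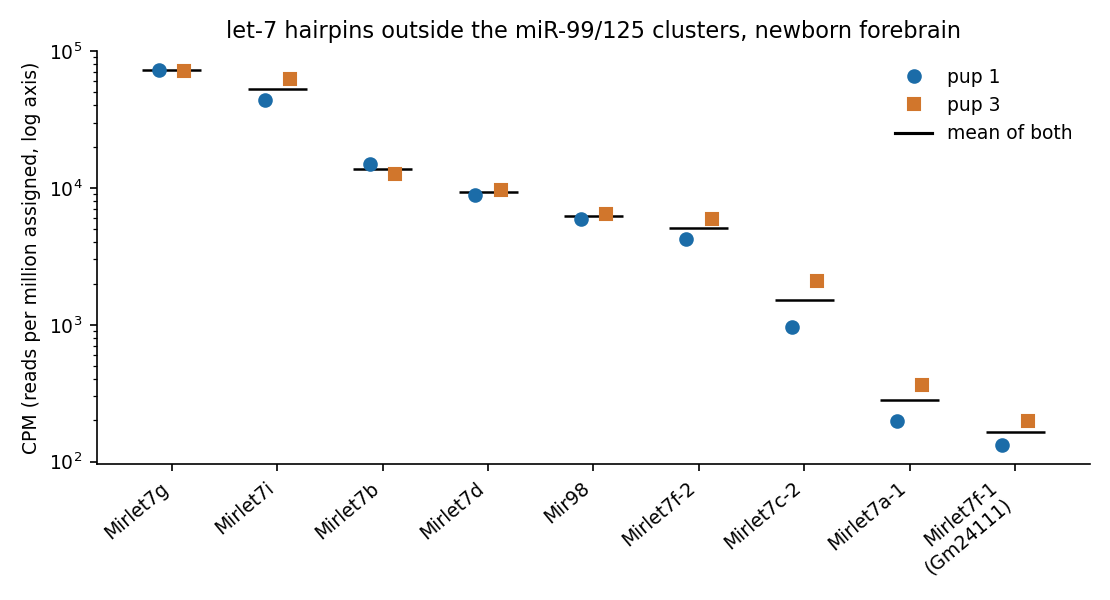
Level of each member in CPM on a log axis, with a circle for pup 1, a square for pup 3 and a line at their mean. Mirlet7g and Mirlet7i stand at a mean of 72093 and 53169 CPM, and Mirlet7a-1 and Mirlet7f-1 (counted at Gm24111) at 282 and 165 CPM.

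The levels of the members spanned more than 2 orders of magnitude and kept the same order in both pups. After Mirlet7g and Mirlet7i came Mirlet7b with 13817 ± 1719 CPM, Mirlet7d with 9273 ± 503 CPM and Mir98 with 6195 ± 400 CPM (each SD, n = 2). Mirlet7f-2 followed with 5056 ± 1182 CPM, then Mirlet7c-2 with 1524 ± 780 CPM, Mirlet7a-1 with 282 ± 119 CPM and Mirlet7f-1 with 165 ± 46.9 CPM. Of the 8 neighbouring pairs in this order, 7 had values that did not overlap between the pups. The exception was Mirlet7a-1 and Mirlet7f-1, whose ranges of 198 to 366 and 132 to 198 CPM met. Within each pup Mirlet7a-1 was the higher, by 1.49 times in pup 1 (95% exact interval 1.39 to 1.61) and 1.85 times in pup 3 (1.73 to 1.97). Mir98 and Mirlet7f-2 came nearest to meeting without doing so, at 5912 CPM for Mir98 in pup 1 and 5892 CPM for Mirlet7f-2 in pup 3. All members were measured in the same 2 pups. Even with this pairing set aside, a two-sided exact permutation test of 2 values against 2 cannot give a p below 0.333. No difference in level between members was therefore tested.

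The 5 members whose 5p product lies in 1 hairpin had the 5 highest counts, at 6195 to 72093 CPM. The 4 whose 5p product lies in 2 hairpins stood at 165 to 5056 CPM. Members of the first kind took 96.4% of the members' reads in pup 1 and 94.99% in pup 3. The counts of the second kind leave out reads that fit both hairpins equally, so they do not measure the level of the shared product. The part of this in the order of levels was not tested. Reads that could be told apart, from a 3p arm, a loop or a longer 5p end, are joined with all others in a hairpin's count, so the arms cannot be compared.

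The hairpins of a cluster are cut from a shared primary transcript, and their shares of the cluster's reads do not depend on how libraries are scaled. As summed shares of assigned reads, the cluster of Mirlet7b and Mirlet7c-2 took 1.6% in pup 1 and 1.47% in pup 3, that of Mir98 and Mirlet7f-2 took 1.01% and 1.24%, and that of Mirlet7a-1, Mirlet7f-1 and Mirlet7d took 0.925% and 1.02%. The counted reads of the clusters thus lay between 0.925% and 1.6%, the first highest in both pups, while their hairpins differed widely. These sums leave out reads that fit another hairpin equally, which concerns Mirlet7c-2, Mirlet7f-2, Mirlet7a-1 and Mirlet7f-1. The loss need not be equal between clusters, and their order was not tested.

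The cluster on the minus strand of chr13:48536012-48538272 spans 2261 bases and overlaps exons of the long noncoding gene 6720427I07Rik. Mirlet7d (ENSMUSG00000065453.1) held 96.4% of its reads in pup 1 and 94.5% in pup 3. Mirlet7a-1 (ENSMUSG00000065421.2) held 2.14% and 3.59%, and Mirlet7f-1 (Gm24111, ENSMUSG00000093232.1) 1.43% and 1.95%. In counts, Mirlet7d had 80581 and 73933 reads, Mirlet7a-1 had 1785 and 2813, and Mirlet7f-1 had 1194 and 1524. Mirlet7d was thus 45.1 times Mirlet7a-1 in pup 1 and 26.3 times in pup 3. Of the 3 hairpins Mirlet7d alone has a 5p product held by no other hairpin. The counts of Mirlet7a-1 and Mirlet7f-1 leave out reads that fit another hairpin equally.

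The cluster on the plus strand of chr15:85706603-85707403 spans 801 bases and overlaps exons of the noncoding gene Lncppara. Mirlet7b (ENSMUSG00000065564.1) had 135847 reads in pup 1 and 96761 in pup 3, and Mirlet7c-2 (ENSMUSG00000065608.1) had 8781 and 15936. Mirlet7c-2 held 6.07% of the cluster in pup 1 (95% exact interval 5.95 to 6.20) and 14.1% in pup 3 (13.9 to 14.3), the largest move of any within-cluster share relative to its level. The ratio of Mirlet7b to Mirlet7c-2 was 15.5 in pup 1 and 6.07 in pup 3. Mirlet7b had more reads in pup 1 and Mirlet7c-2 more in pup 3. Reads that fit Mirlet7c-2 and Mirlet7c-1 equally are outside these counts.

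The cluster on the plus strand of chrX:151912346-151913321 spans 976 bases in an intron of Huwe1, which encodes a ubiquitin ligase. Its hairpins were the most even of the 3 clusters. Mir98 (ENSMUSG00000065536.2) had 53429 reads in pup 1 and 49742 in pup 3, and Mirlet7f-2 (ENSMUSG00000065602.1) had 38143 and 45242. Mir98 held 58.3% of the cluster in pup 1 and 52.4% in pup 3. Mirlet7f-2 shares its 5p product with Mirlet7f-1, and reads that fit both hairpins equally are outside the counts. Among the reads counted, Mirlet7f-2 had 31.9 times those of Mirlet7f-1 in pup 1 and 29.7 times in pup 3. Of the 4 members with a 5p product in 2 hairpins, Mirlet7f-2 had the most reads.

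**Figure D2:**
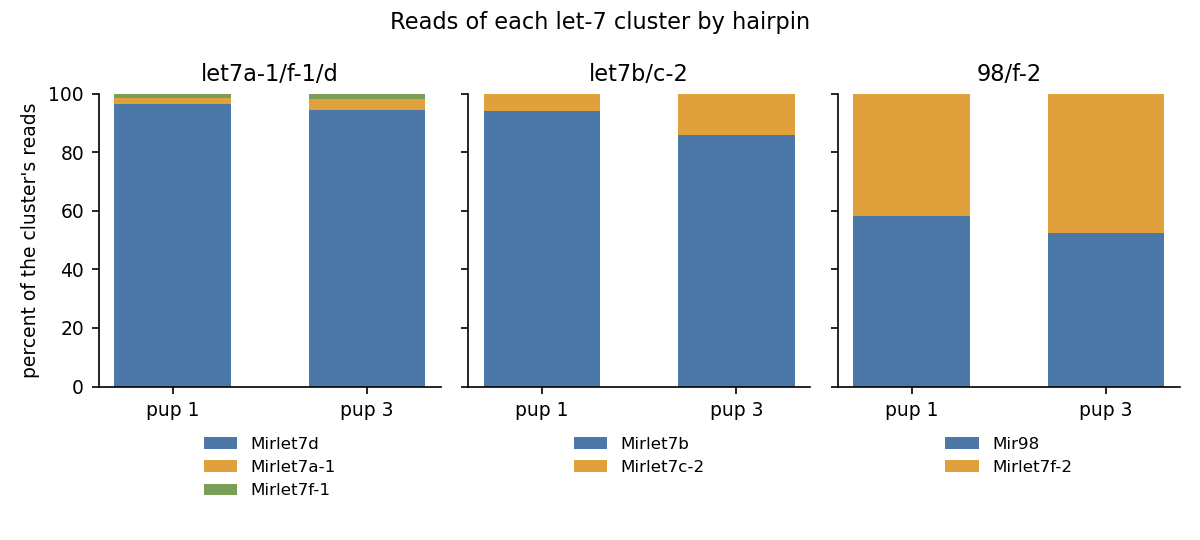
Percent of the reads of each cluster that were counted at each of its hairpins, in pup 1 and pup 3. Mirlet7d and Mirlet7b fill most of their clusters (94.5 to 96.4% and 85.9 to 93.9%), while Mir98 holds 52.4 to 58.3% of its own. Mirlet7d, Mirlet7b and Mir98 each take a smaller share in pup 3 than in pup 1.

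The reads lay almost entirely on the strand of the let-7 hairpin. For Mirlet7g, Mirlet7i, Mirlet7c-2, Mirlet7d, Mirlet7f-2 and Mir98 no read lay on the other strand in either pup. Mirlet7a-1 had 1 such read in pup 3, and Mirlet7b had 36 in pup 1 and 24 in pup 3. The row of Gm24111 had 1188 of its 1194 reads in pup 1 (99.5%) and 1522 of 1524 in pup 3 (99.9%) on the strand of Mirlet7f-1, not on its own.

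The terminal loops of the precursors were searched for GGAG and GAU, letters known from the binding of Lin28 to let-7 precursors. The search covered the hairpin's own strand, between the 5p and the 3p product. GGAG was present in 6 of the 9 members and absent from Mirlet7b, Mirlet7c-2 and Mir98. GAU was present in 8 and absent from Mirlet7c-2. In 5 members a GAU did not overlap GGAG, namely Mirlet7g, Mirlet7f-1, Mirlet7d, Mirlet7b and Mir98, and the last 2 hold no GGAG. In Mirlet7g and Mirlet7f-1 another GAU overlapped it as GGAGAU, as the only GAU did in Mirlet7i, Mirlet7a-1 and Mirlet7f-2. Of the 644 RefSeq hairpins with both products, 8.07% held GGAG in this stretch, 15.7% held GAU and 1.40% held both. The 644 include the members: 9 hairpins held both, and 6 members do. The members' stretches ran to 26 to 36 bases against a median of 16 for all hairpins, so the shares are not of equal lengths. 2 hairpins are shown to set a loop with GGAG (in capitals) beside one with neither.
Mirlet7g: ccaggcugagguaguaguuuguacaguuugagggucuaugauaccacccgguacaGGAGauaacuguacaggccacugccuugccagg
Mirlet7c-2: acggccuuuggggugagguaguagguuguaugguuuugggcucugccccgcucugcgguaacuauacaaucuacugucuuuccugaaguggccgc

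Members with GGAG included the 2 with the highest counts and the 2 with the lowest, at 165 to 72093 CPM. Those without it stood at 1524 to 13817 CPM. The ranges overlap.

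Most members had a higher level in pup 3 than in pup 1, and none was lower by 1.5-fold or more. The ratio of pup 3 over pup 1 was taken after TMM scaling, which sets the bulk of genes level, and each pup is a single library, so no ratio has a replicate check and none was tested. A gene counted as higher or lower when the pups were at least 1.5-fold apart. Of the 9 members 5 were higher, namely Mirlet7c-2, Mirlet7a-1, Mirlet7f-1, Mirlet7i and Mirlet7f-2. Across the 310 genes that averaged at least 10 CPM, 32.9% were past this fold, 17.4% higher and 15.5% lower. The members' median log2 ratio was 0.68, against -0.03 over the 310 genes. Under scaling by total counts, which shifts the median of all genes by -0.20, 3 members were past the fold (Mirlet7c-2, Mirlet7a-1 and Mirlet7f-1), all higher, against 12.3% of the 310 genes higher and 23.5% lower. The median of the 9 members was then 0.48, against -0.23 over the 310 genes.

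Mirlet7c-2 had the largest ratio of the members, with 972 CPM in pup 1 and 2075 CPM in pup 3 and a log2 ratio of 1.29 (95% exact binomial interval for counting error 1.26 to 1.33). Mirlet7a-1 followed with 198 and 366 CPM and a log2 ratio of 1.09 (1.01 to 1.18). For these members the pups were 2.45-fold and 2.13-fold apart, and 95.2% and 91.3% of the 310 genes had a smaller absolute log2 ratio. Mirlet7f-1 had 132 and 198 CPM and a log2 ratio of 0.79 (0.68 to 0.90). Mirlet7i had 0.69 and Mirlet7f-2 had 0.68.

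The other 4 members were closer between pups. Mirlet7d, with 8917 and 9628 CPM, had a log2 ratio of 0.31, and Mir98, with 5912 and 6478 CPM, had 0.33. Mirlet7g had 0.16, which turned to -0.04 under total counts. Mirlet7b, with 15032 and 12601 CPM, had -0.05, and was the only member with a negative value under TMM scaling.

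**Figure D3:**
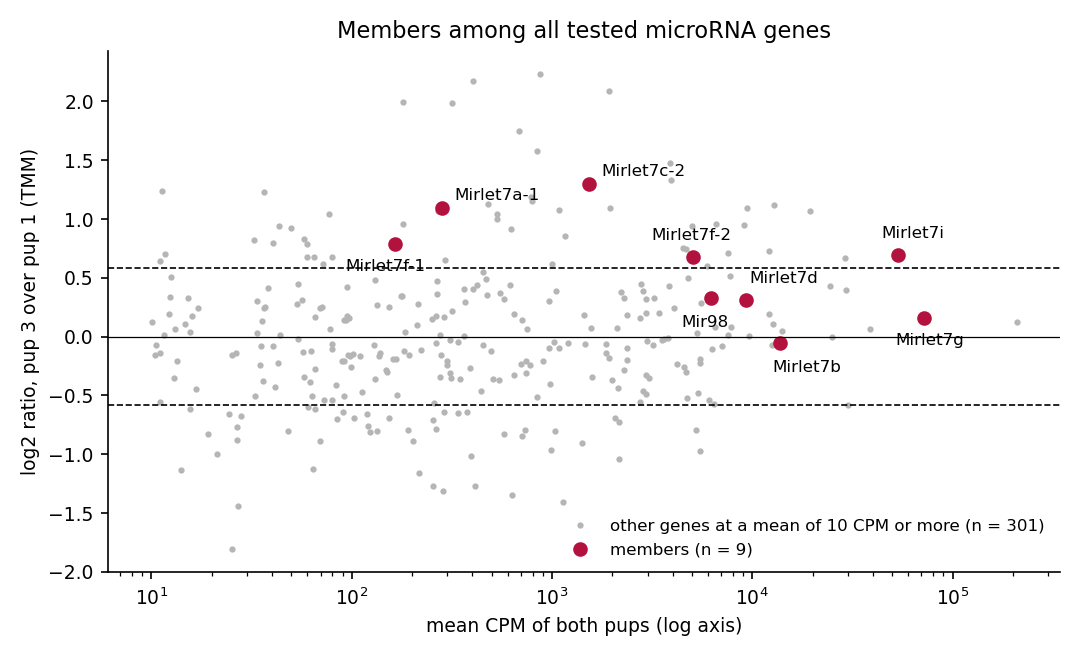
Log2 ratio of pup 3 over pup 1 after TMM scaling against the mean CPM of both pups (log axis), for the 9 members and the other genes that averaged at least 10 CPM; dashed lines mark 1.5-fold. The members lie between -0.05 and 1.29, and 5 of them lie above the upper line.

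The members that were higher in pup 3 were mostly those with a 5p product in 2 hairpins, a grouping made after the ratios were seen. All 4 such members were at least 1.5-fold higher, with log2 ratios of 0.68 to 1.29. Of the 5 members with a product in 1 hairpin, which ran from -0.05 to 0.69, 1 was. Across the 310 genes 17.4% were at least 1.5-fold higher. The members' ranges meet at Mirlet7i (0.694) and Mirlet7f-2 (0.681). Under total counts the ranges were 0.48 to 1.09 and -0.25 to 0.49. Mirlet7i and Mirlet7f-2 were then no longer past the fold, and 12.3% of the 310 genes were higher. The 3 let-7 hairpins of the miR-99/miR-125 clusters, in the same libraries, gave 0.96 for Mirlet7a-2 and 0.91 for Mirlet7c-1, whose products lie in 2 hairpins, and -0.19 for Mirlet7e (counted at Gm25927), whose product lies in 1. Let-7j (Mir7j), whose product also lies in 1 hairpin and lacks the GAGGUAG seed, had 32.2 and 48.7 CPM and a log2 ratio of 0.80, above the range of the other hairpins with a product of their own. The other genes were grouped by either arm, 5p or 3p, matched on either strand, which is wider than the members' grouping by 5p product. Among the 265 tested genes matched to RefSeq products, and without let-7, 43 had an arm in more than 1 hairpin and 209 had none. Their median log2 ratios were 0.18 and -0.07. The interquartile ranges ran from -0.23 to 0.62 and from -0.43 to 0.32, so these groups overlap widely. The part of reads that map to several places in these ratios was not tested.

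**Figure D4:**
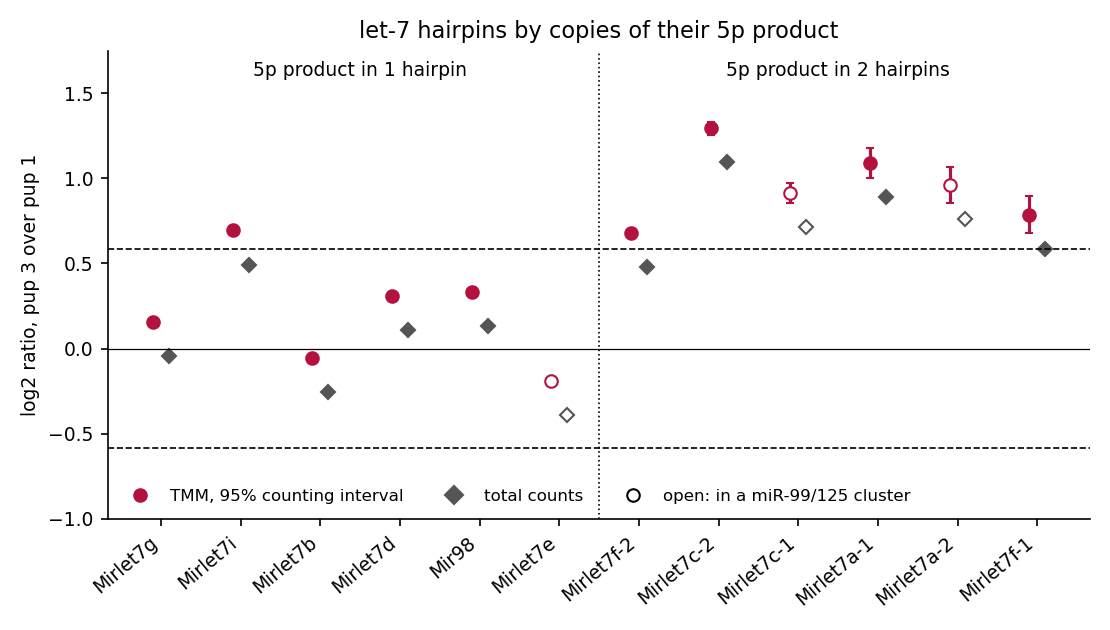
Log2 ratio of pup 3 over pup 1 for the 9 members and the 3 let-7 hairpins of the miR-99/miR-125 clusters, parted by whether their 5p product lies in 1 hairpin or in 2. Circles are TMM values with 95% counting intervals, diamonds are values under total counts, and open symbols are those 3 hairpins; the right group runs from 0.68 to 1.29 and the left from -0.19 to 0.69 under TMM.

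Set beside the rest of the family, the 9 members held nearly all let-7 reads that were assigned to a gene. The 3 let-7 hairpins of the miR-99/miR-125 clusters accounted for 0.681% (pup 1) and 0.573% (pup 3) of the assigned reads, against 15.3% and 17.0% for the members. In counts, Mirlet7a-1 was 1.48 times Mirlet7a-2 in pup 1 and 1.62 times in pup 3, and Mirlet7c-2 was 2.05 and 2.66 times Mirlet7c-1. Each pair shares a 5p product, and reads that fit both hairpins of a pair equally are outside these counts and shares. How such reads divide between the members and the other let-7 hairpins is therefore not known. Mir202, a more distant relative, had 17 and 11 reads. Of the other let-7 hairpins, let-7j (counted at Mir7j) had 291 and 374 reads and let-7k (counted at Mir7k) had 14 and 1.

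With 2 samples a pattern across samples cannot be told from a single difference, so likeness was measured as the distance between the log2 CPM values of 2 genes over both pups, among 297 genes outside the family. The nearest gene to Mirlet7d was Mir125a (distance 0.054, at 8644 and 9433 CPM), and the nearest to Mirlet7a-1 was Mir451a, a microRNA of red blood cells (0.077, at 192 and 350 CPM). Mirlet7b was nearest to Mir149 (0.080), Mirlet7f-2 to Mir21a (0.17), Mir98 to Mir23b (0.21), Mirlet7f-1 to Mir668 (0.36) and Mirlet7c-2 to Mir425 (0.56). Mirlet7g and Mirlet7i were both nearest to the endothelial Mir126a, at distances of 1.27 and 0.76. None of these 297 genes thus had a level like that of Mirlet7g.

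The tables held 9037087 reads assigned to genes in pup 1 and 7678662 in pup 3, and 433 genes had 10 or more counts in both. Of 12 neural marker hairpins, 11 were in the tables and 7 reached a mean of 10 CPM. The sum of the 11 was 3.74% (pup 1) and 4.95% (pup 3) of the assigned reads. Most of it was Mir137, with 24345 and 33595 CPM, while Mir153 was lower in pup 3, with 3901 and 3353 CPM. The 3 Mir124a hairpins, defining for neurons, stood between 0.781 and 14.7 CPM. These 3 are copies that give the same main product, so reads of that product map to several places and these counts do not measure its level. Of 5 muscle markers 4 were in the tables: Mir206 had 857 reads in pup 1 and 342 in pup 3, and Mir1a-1, Mir133a-1 and Mir133a-2 had none, but these 3 also share their main products with other hairpins. The 5 Hox cluster hairpins, which mark tissue behind the forebrain, summed to at most 0.0192%. Epithelial markers summed to 0.368% in pup 1 and 1.05% in pup 3, all 5 above 10 CPM on the mean. Blood markers, with 3 of 4 in the tables, summed to 0.0346% and 0.0514%. Among them Mir144 was lower in pup 3 (36.3 and 19.8 CPM), while Mir223 (118 and 144 CPM) and Mir451a (192 and 350 CPM) were higher. The sum of the choroid plexus markers (2 of 2 in the tables) was lower in pup 3, with 1.16% and 0.853%. The endothelial Mir126a was also lower, with 4.05% and 3.69%. The part of other tissue in the members' ratios was not tested. In whole tissue, fewer cells of a type and less RNA per cell cannot be told apart.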

How the data were processed

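The authors deposited raw read counts for microRNA genes. Notes beside the tables name mm10 as the assembly and M4 as the annotation, with the aligner and the counter not given in the sources used here. Without headings, a table has 3 columns of counts, where the first equals the sum of the others in all 1973 genes; these were read as reads of both strands, of the gene's strand and of the opposite strand. The 4 tallies that name no gene (unmapped, several places, no gene, ambiguous) stayed out of library sizes and held 59.8% of reads in pup 1 and 59.2% in pup 3.

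GENCODE M21 (GRCm38, the same assembly as mm10) gave symbols, positions and hosts, matched on the identifier without its version (1894 matched, with all 9 members among them). Sequences came from RefSeq (GRCm38.p6), where all 9 members were matched by symbol, with Mirlet7f-1 for Gm24111. Copies were exact matches on either strand in 1005 hairpins, and the genome was not searched.

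CPM is a count per 1000000 reads assigned to genes. Ratios used counts with 0.5 added and TMM factors of edgeR 4.0.16 from all genes (1.07 for pup 1 and 0.933 for pup 3). A call was a fold of 1.5 with no test, as 1 group has no contrast. The ratio script was tested on simulated data. A chi-square over 433 genes (393211 on 432 degrees of freedom) showed that the tables are not repeats of 1 library, and does not bear on the number of animals. The samples were taken as 2 because the labels describe separate pups, though with 1 donor record for both.

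The text names all 9 members, 8 other family symbols, let-7j and let-7k under the symbols Mir7j and Mir7k (added after their values were seen) and, for each member, the nearest gene by log2 CPM. The members and lists were chosen with earlier results of these data known. Alternatives were total counts, size factors of DESeq2 1.42.0, other filters, strands, denominators and each pup alone. Software was R 4.3.3 with Python 3.11.15.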

Additional observations from a re-analysis of the deposited data

How the results depend on the processing

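The summed share of the 9 members, 16.2% on the mean of both pups, was 15.3% to 17.0% in single pups and 6.55% of all reads of the tables, whose denominator also holds reads assigned to no gene. In single pups the share of Mirlet7d within its cluster was 94.5 to 96.4%, that of Mirlet7b 85.9 to 93.9%, that of Mir98 52.4 to 58.3%, and that of members with a 5p product in 1 hairpin 94.99 to 96.4%. The log2 ratio of the summed members, 0.36 by TMM, was 0.16 under total counts, 0.37 by DESeq2 size factors and 0.35 on the hairpins' own strand. Members at least 1.5-fold higher in pup 3 numbered 5 by TMM (17.4% of all 310 genes were) and 3 under total counts (12.3%), and 5 under the other 4 alternatives; none was lower under any of these 5. Of the single members' ratios, that of Mirlet7g changed sign under total counts (-0.04) and no other did. No paired analysis was possible because there is 1 group. A ratio between pups could not be computed without either replicate. Counting error was widest for Mirlet7f-1, with 1194 and 1524 reads, and reads that fit Mirlet7f-2 equally are outside its count.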
